A study of Mus musculus with 8 samples.

Results

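The proteasome subunit genes are the genes of the count table whose symbol is Psma, Psmb, Psmc, Psmd or Psme followed by a digit. The rule matched 45 of 27179 genes, and 43 of these encode a subunit or a dedicated assembly chaperone of the proteasome. The other two, Psmc3ip and Fam192a (Psme3ip1 in the NCBI table), encode no subunit and were kept apart. The 43 genes comprise 7 genes of the alpha ring and 7 constitutive genes of the beta ring of the 20S core, 3 immunoproteasome genes, 2 tissue-specific core genes, 6 ATPase and 11 non-ATPase genes of the 19S cap, 3 chaperones of cap assembly and 4 activators. Of these, 42 passed the filter on low counts. Psmb11, a core subunit of the thymus, did not, with 0 to 4 counts per library, and Psma8, a core subunit of the testis, passed at 4 to 18 counts.

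The cells were plasma cells of mouse bone marrow, sorted as Blimp1-GFP+CD138+ from C57BL/6 mice, and 8 libraries of their RNA were sequenced in 2 batches. Blimp1KO (Blimp1-/-, 2 libraries) was set against wild type of batch 1 (WT, 2 libraries), and Xbp1KO (Xbp1-/-, 2 libraries) against WT of batch 2 (2 libraries). All groups share the strain and the reporter sort, so the sort selects reporter-positive cells in both knockouts too. The sample labels give neither the deleted exons, nor a Cre driver, nor the age of the mice. Names in the deposit mention CreER and fl, and these were not used here. The replicates are called biological in the series' design text, but animals or pools are not given. The p-values thus measure the spread between these libraries. Unless another fit is named, this spread was estimated from all 8 libraries together. The SE and p of each comparison thus also carry the spread within the groups outside it.

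The proteasome is the main protease of the cytosol and nucleus. Its core is a barrel of alpha and beta rings in which Psmb5, Psmb6 and Psmb7 cut proteins, and the cap recognises, unfolds and feeds in proteins tagged with ubiquitin. Under interferon and in many immune cells, Psmb8, Psmb9 and Psmb10 replace Psmb5, Psmb6 and Psmb7 in newly built cores, which changes the peptides that reach class I molecules. Plasma cells make and secrete large amounts of antibody, degrade misfolded chains through the proteasome and are known for their sensitivity to proteasome inhibitors. Blimp1, encoded by Prdm1, and XBP1 are transcription factors of the plasma cell programme.

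The sequences 250 bases upstream of the annotated start are shown for the 3 immunoproteasome genes, the class with the lowest median in Xbp1KO, and for Psmb5, the partner of Psmb8. They are from the RefSeq promoter table of build GRCm38.p6, written 5′ to 3′ on the strand of the gene, with matches to the motifs searched in capitals.

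Psmb8 chr17:34197945-34198194 (+ strand): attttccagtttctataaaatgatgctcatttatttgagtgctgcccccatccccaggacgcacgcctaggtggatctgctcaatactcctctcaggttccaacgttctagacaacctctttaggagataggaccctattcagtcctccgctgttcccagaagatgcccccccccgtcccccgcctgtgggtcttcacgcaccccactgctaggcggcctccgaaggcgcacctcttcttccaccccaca
Psmb9 chr17:34187331-34187580 (- strand): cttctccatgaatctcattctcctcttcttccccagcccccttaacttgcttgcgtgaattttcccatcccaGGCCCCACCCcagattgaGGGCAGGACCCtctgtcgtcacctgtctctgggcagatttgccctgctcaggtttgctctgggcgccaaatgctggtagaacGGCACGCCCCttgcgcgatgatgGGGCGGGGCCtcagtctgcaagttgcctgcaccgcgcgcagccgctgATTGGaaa
Psmb10 chr8:105938393-105938642 (- strand): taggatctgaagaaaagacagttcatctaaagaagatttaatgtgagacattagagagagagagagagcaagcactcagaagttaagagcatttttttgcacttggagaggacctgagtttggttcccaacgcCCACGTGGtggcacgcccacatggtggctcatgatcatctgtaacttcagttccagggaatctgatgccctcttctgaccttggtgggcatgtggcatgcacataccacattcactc
Psmb5 chr14:54617996-54618245 (- strand): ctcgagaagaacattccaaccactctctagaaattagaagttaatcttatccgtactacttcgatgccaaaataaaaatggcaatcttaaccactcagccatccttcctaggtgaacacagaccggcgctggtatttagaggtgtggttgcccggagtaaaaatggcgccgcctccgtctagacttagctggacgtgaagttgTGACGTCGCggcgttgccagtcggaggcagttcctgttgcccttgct

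The motifs were searched on both strands and chosen for factors with a known part in interferon, stress or plasma cell responses, and of the 43 subunit genes 36 had an entry. Psmb8 held no match. Psmb9 held a CCAAT box on the opposite strand and several matches to a loose kappaB core, some of which overlap. This core (GGG and CC with any 5 bases between) matched in 45.4% of all 27025 promoters and in 19 of the 36 members. The CCAAT box matched in 34.5% of all promoters and in 14 members. Psmb10 held CCACGT, a core that XBP1 can bind, on both strands at overlapping positions. That core matched in 6.90% of all promoters and in 4 members. Psmb5 held TGACNNNGC, the antioxidant response element core, which matched in 10.1% of all promoters and in 5 members. These members include Psmb6, whose window runs past the annotated gene start, and its match to this core lies past that start. The interferon response core (GAAA, any 2 bases, GAAA) matched in 3.04% of promoters and in 3 members (Psmb3, Psmd4 and Psmd9), and GAAAGTG, the Blimp1 core, in 3.97% and in 1 member, Psmb3. The unfolded protein response core TGACGTGG (0.503% of promoters) and the ER stress element (CCAAT and CCACG with any 9 bases between, 0.122%) matched in 0 members. A match describes letters in this window and no binding. The window of Psmb9 shares 225 bases with that of Tap1, a peptide transporter gene that starts in the opposite direction.

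Total counts ranged from 44012152 to 145411827 per library. The libraries held 18.98 M to 72.9 M counts (M for 1e6) outside immunoglobulin genes. Immunoglobulin genes took 56.9% ± 2.07 of counts in Blimp1KO (SD, n = 2), against 75.7% ± 0.0750 in WT of batch 1, and 27.6% ± 3.38 in Xbp1KO, against 67.3% ± 3.46 in WT of batch 2. Values below are counts per 1e6 (CPM) on library sizes scaled by TMM. Prdm1 and Xbp1 were not called in either knockout, with log2 fold changes of -0.54 ± 0.25 and -0.98 ± 0.25 (SE, n = 2 per group) in Blimp1KO and 0.63 ± 0.25 and -0.85 ± 0.25 in Xbp1KO. The deleted exons are not known here and reads from the remaining exons still count, so these values do not check the genotype labels. Sdc1, which encodes CD138, was at -0.52 ± 0.22 in Blimp1KO and 0.74 ± 0.22 in Xbp1KO. The 6 plasma cell markers summed to 57187 and 70156 CPM in Blimp1KO, against 116723 and 108411 CPM in WT of batch 1. In Xbp1KO their sum was 39669 and 31774 CPM, against 66311 and 48816 CPM in WT of batch 2. Both sums were lower without overlap. By gene, 0 estimates were higher and 6 lower in Blimp1KO, and 4 were higher and 2 lower in Xbp1KO. Markers of neutrophils and monocytes summed to 506 and 257 CPM in Blimp1KO, against 287 and 351 CPM in WT of batch 1. For Xbp1KO they summed to 43.8 and 950 CPM, against 12.2 and 411 CPM in WT of batch 2. B cell markers (4 genes) summed to 339 and 338 CPM in Blimp1KO, against 136 and 113 CPM in WT of batch 1, and overlapped in batch 2, with 146 and 130 CPM in Xbp1KO against 144 and 109 CPM in WT. Dendritic cell markers (6 genes) were higher without overlap in both knockouts, at 44.8 and 41.2 CPM in Blimp1KO, against 20.8 and 21.3 CPM in WT of batch 1, and at 29.6 and 32.5 CPM in Xbp1KO, against 12.2 and 12.1 CPM in WT of batch 2. The sum of the 4 stroma markers did the same. It was 62.0 and 44.7 CPM in Blimp1KO, against 29.1 and 30.8 CPM in WT of batch 1. In Xbp1KO it was 39.9 and 41.5 CPM, against 30.2 and 27.3 CPM in WT of batch 2. By gene, however, 2 stroma estimates were higher and 2 lower in each knockout, and 1 of the 4 genes was higher without overlap in each. The sums of T and NK cell and of erythroid and megakaryocyte markers overlapped in both comparisons. By edgeR's quasi-likelihood test, 0 markers of these lists were called in Blimp1KO, and in Xbp1KO 1 of 8 neutrophil and monocyte and 1 of 6 dendritic cell markers were higher. No marker was at 0 counts in all libraries of a group. The part of these cells in the results below was not tested. In bulk samples, fewer cells of a type and less RNA per cell cannot be told apart.

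Per gene length, plasma cells of all groups carried more Psmb8 than Psmb5 mRNA and more Psmb9 than Psmb6 mRNA. In WT of batch 1, Psmb8 stood at 214 ± 25.2 CPM per kilobase of gene length (RPKM; SD, n = 2) and Psmb9 at 152 ± 16.4, followed by the structural core subunits Psmb4 at 130 ± 0.412, Psmb1 at 121 ± 3.22 and Psma7 at 112 ± 1.59. Psmb5 stood at 38.1 ± 0.392 RPKM. Psmb8 and Psmb9 were also the highest pair in Blimp1KO (236 ± 101 and 175 ± 70.1 RPKM) and in WT of batch 2 (129 ± 2.81 and 94.1 ± 5.62). In Xbp1KO, Psmb8 (86.2 ± 6.12 RPKM), Psmb4 (83.3 ± 7.56) and Psmb1 (82.3 ± 8.72) did not differ beyond their spread, and Psmb9 stood at 48.7 ± 0.681. Among the subunits outside the tissue-specific genes, Psmd9, Psme2, Psma3 and Psma5 had low levels in every group, between 2.97 and 10.98 RPKM. In some groups other genes fell in this range too. Psmd10 was at 7.21 RPKM in Xbp1KO and 6.60 in WT of batch 2, and Psmd11 and Psme4 were at 9.14 and 9.25 in Blimp1KO. RefSeq names a pseudogene after Psma5, Psmb5, Psmb6 and Psmb7, and a near copy, Psme2b, beside Psme2. How the counting treated reads shared with these copies is not given in the sources used here. The levels of Psma5, Psmb5, Psmb6, Psmb7 and Psme2 are thus uncertain.

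On the TMM scale, the sum over all 43 genes overlapped between the libraries of each knockout and its WT. The sum was 2611 ± 670 CPM in Blimp1KO, against 2518 ± 20.9 CPM in WT of batch 1. For Xbp1KO it was 1900 ± 146 CPM, against 1803 ± 52.6 CPM in WT of batch 2. The log2 ratios were 0.05 (exact 2-sided permutation p = 1) and 0.08 (p = 0.667), where 2 against 2 libraries can give no p below 0.333. The 3 immunoproteasome genes together had 204 and 190 CPM in the Xbp1KO libraries, against 290.0 and 281 CPM in WT of batch 2, a log2 ratio of -0.54 with no overlap between the groups (exact permutation p = 0.333). The 14 constitutive core genes had 615 and 549 CPM in Xbp1KO, against 545 and 507 CPM in WT of batch 2, and the 17 cap genes 895 and 793 CPM, against 732 and 715 CPM. On this scale the Xbp1KO sum was thus below WT for the immunoproteasome, and above it for the constitutive core (0.14) and the cap (0.22) in log2 units. In Blimp1KO the immunoproteasome sum was 379 and 705 CPM, on either side of the 505 and 437 CPM in WT of batch 1.

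These directions depend on the scaling, as immunoglobulin genes are part of all counts and took a smaller share of them in the knockouts. As a share of all counts, the 43 genes took 0.360% and 0.379% in Xbp1KO, against 0.148% and 0.167% in WT of batch 2. In Blimp1KO they took 0.226% and 0.298%, against 0.143% and 0.151% in WT of batch 1. On that scale both knockouts lay above WT with no overlap. The immunoproteasome sum turned with it, at 0.0367% and 0.0400% of all counts in Xbp1KO, against 0.0234% and 0.0266% in WT of batch 2. In Blimp1KO that sum took 0.0401% and 0.0680% of all counts, against 0.0285% and 0.0263% in WT of batch 1, also higher without overlap. As a share of counts outside immunoglobulin genes, the immunoproteasome sum was lower again in Xbp1KO, with 0.0523% and 0.0534%, against 0.0771% and 0.0756% in WT of batch 2. On that scale the 43 genes took 0.514% and 0.506% in Xbp1KO, against 0.489% and 0.474% in WT of batch 2, higher without overlap. In Blimp1KO they took 0.507% and 0.715%, on either side of the 0.588% and 0.620% in WT of batch 1.

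**Figure D1:**
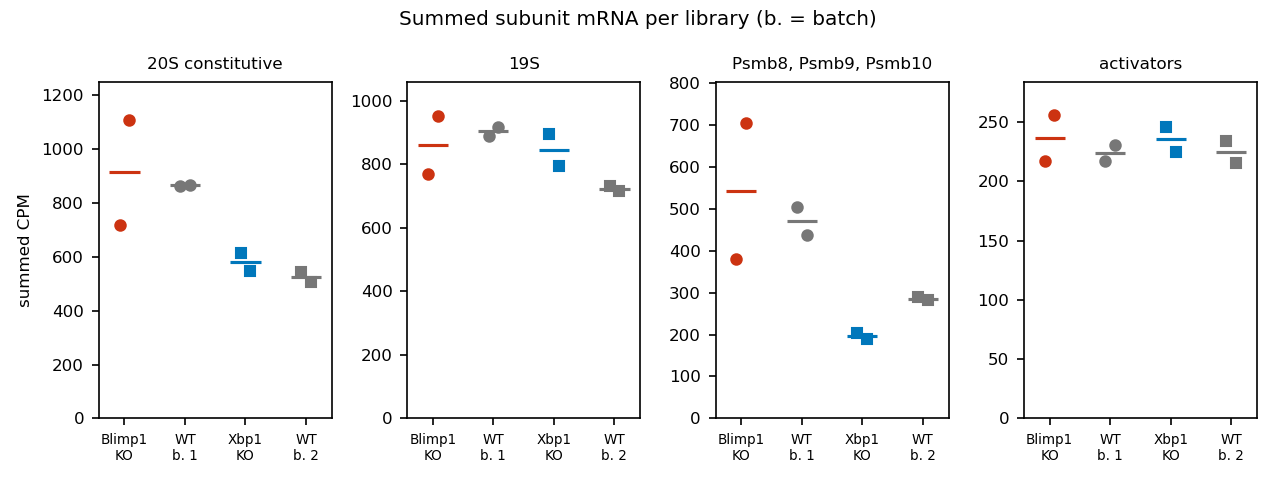
Summed CPM of the constitutive core, the cap, the immunoproteasome and the activators in each library (points), with the mean of the group as a bar. The Xbp1KO libraries lie below WT of batch 2 for the sum of Psmb8, Psmb9 and Psmb10 and above it for the cap, and the Blimp1KO libraries lie far apart in the core.

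In Xbp1KO, 1 of 42 subunit genes passed edgeR's quasi-likelihood test at a Benjamini-Hochberg adjusted p below 0.05, whereas 7.7% of all 15073 genes tested did (2.63% higher and 5.06% lower). That gene is Psmd14, which encodes the deubiquitinase of the cap that removes ubiquitin chains as a protein enters the core. It had 47.8 and 43.8 CPM in Xbp1KO, against 28.1 and 29.3 CPM in WT of batch 2. Both Xbp1KO libraries lay above both WT libraries. Its level was 1.60-fold that of WT, or 0.67 ± 0.16 on the log2 scale (adjusted p = 0.0467, 2 libraries per group, ± SE). This call is at the threshold. With each library of WT of batch 1, WT of batch 2 or Xbp1KO left out in turn, the adjusted p was 0.123 to 0.239, and it was 0.051 with the other normalization and 0.077 without immunoglobulin genes. The estimates stayed positive, from 0.53 to 0.76 log2 units, in all these fits.

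Across the complex, 31 of 42 estimates were above and 11 below WT of batch 2, with a median log2 fold change of 0.13, against 0.08 for all genes tested. The groups did not overlap for 17 genes higher in Xbp1KO and 6 lower, where 31.8% and 25.8% of all genes did the same. The classes had medians of 0.13 in the alpha ring, 0.17 in the constitutive beta ring, 0.17 in the cap ATPases, 0.10 in the other cap subunits, 0.04 in the assembly chaperones, 0.46 in the activators and -0.59 in the immunoproteasome.

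Psmb9 and Psmb8 held the lowest estimates of all subunit genes in Xbp1KO, whereas Psmb10 was near 0. Psmb9, whose product replaces Psmb6, had 39.6 and 38.8 CPM in Xbp1KO, against 72.6 and 79.0 CPM in WT of batch 2. Both Xbp1KO libraries lay below both WT libraries. The log2 fold change was -0.95 ± 0.27 (0.517-fold, adjusted p = 0.088), which does not pass. The spread behind this SE and p also draws on Blimp1KO, with 101 and 181 CPM, and WT of batch 1, with 132 and 113 CPM. Psmb8, whose product replaces Psmb5, had 111 and 100 CPM in Xbp1KO, against 161 and 156 CPM in WT of batch 2, a log2 fold change of -0.59 ± 0.30 (adjusted p = 0.292). These groups did not overlap either. Psmb10, whose product replaces Psmb7, had 53.7 and 50.7 CPM in Xbp1KO, against 56.6 and 46.6 CPM in WT of batch 2, a difference of 0.02 ± 0.30 with overlapping groups. The constitutive partners were at -0.11 ± 0.28 (Psmb5), -0.02 ± 0.26 (Psmb6) and 0.31 ± 0.20 (Psmb7). Psmb9 passed the test in some other fits, at -0.96 to -1.16 log2 units: with the length trend removed (adjusted p = 0.006), with DESeq2 (0.009) and in a fit of batch 2 alone (0.015). It also passed without the low-count filter (-0.95, adjusted p = 0.027) and without Blimp1KO replicate 1 (0.015) or 2 (0.009). It did not pass with the other normalization or without immunoglobulin genes. Nor did it pass with limma on the deposited log2 FPKM values (-0.93, adjusted p = 0.054). The same held with each library of batch 2 left out in turn (-0.90 to -1.04).

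**Figure D2:**
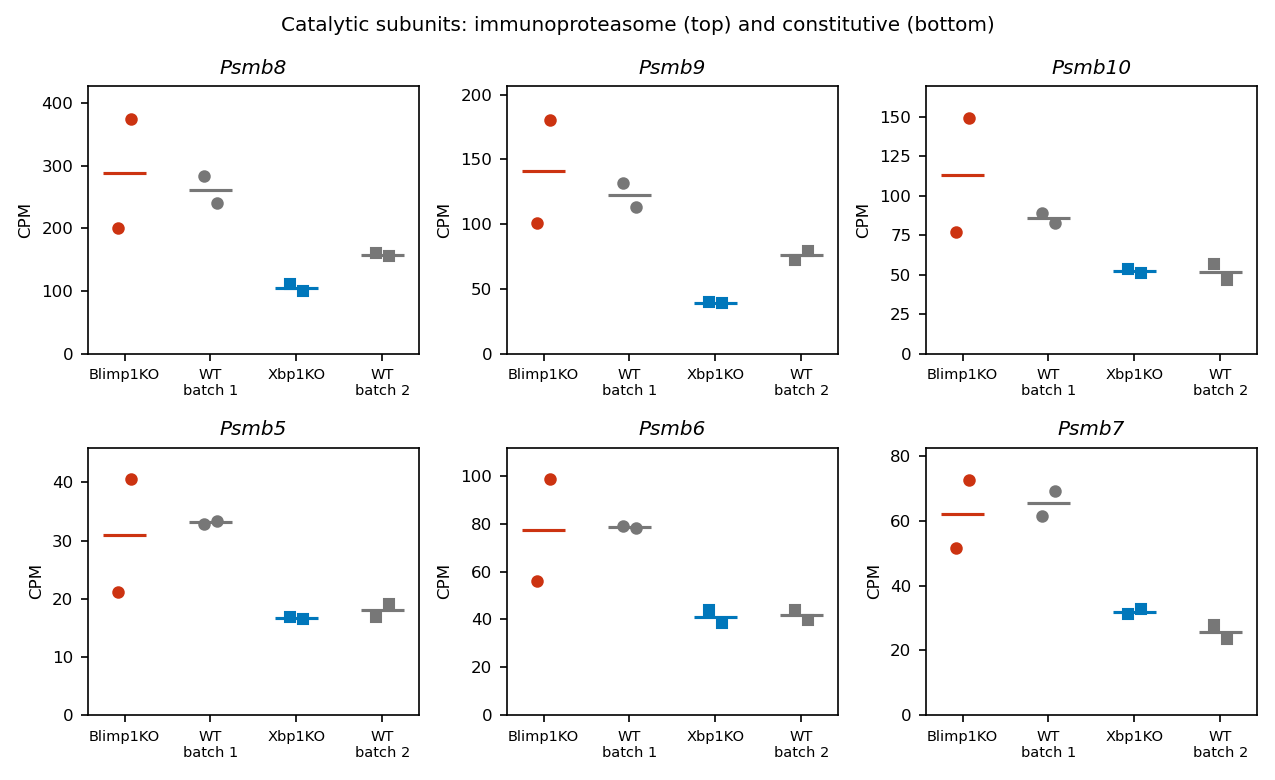
CPM of the 3 immunoproteasome subunits (top) and their constitutive partners (bottom) in each library, with the group mean as a bar and each axis starting at 0. Psmb8 and Psmb9 lie lower in the Xbp1KO libraries than in WT of batch 2, whereas Psmb10, Psmb5 and Psmb6 overlap or nearly overlap.

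The ratio of an immunoproteasome subunit to its partner was taken within each library from the deposited log2 FPKM values. Psmb9 to Psmb6 was 0.21 and 0.38 log2 units in Xbp1KO, against 1.08 and 1.38 in WT of batch 2, which is 1.23-fold against 2.35-fold. The difference was -0.94, and no library overlapped. Psmb8 to Psmb5 was 2.24 and 2.24 in Xbp1KO, against 2.77 and 2.58 in WT of batch 2 (-0.43), and Psmb10 to Psmb7 was 0.43 and 0.30, against 0.66 and 0.61 (-0.27). In Blimp1KO, Psmb9 to Psmb6 was 1.14 and 1.22, against 0.86 and 1.06 in WT of batch 1 (0.22). Psmb10 to Psmb7 differed by 0.36. Psmb8 to Psmb5 differed by 0.23, and its groups overlapped. From counts per gene length this pair did not overlap, with 2.76 and 2.72 in Blimp1KO, against 2.62 and 2.36 in WT of batch 1. On the FPKM values the ratios were thus below WT for all 3 pairs in Xbp1KO. In Blimp1KO they were above WT for the pairs that did not overlap on that scale. The exact 2-sided permutation p on the FPKM values was 0.333 (adjusted 0.400 over 6 tests), the smallest that 2 against 2 libraries can give. Psmb8 to Psmb5 in Blimp1KO was the exception (0.667).

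**Figure D3:**
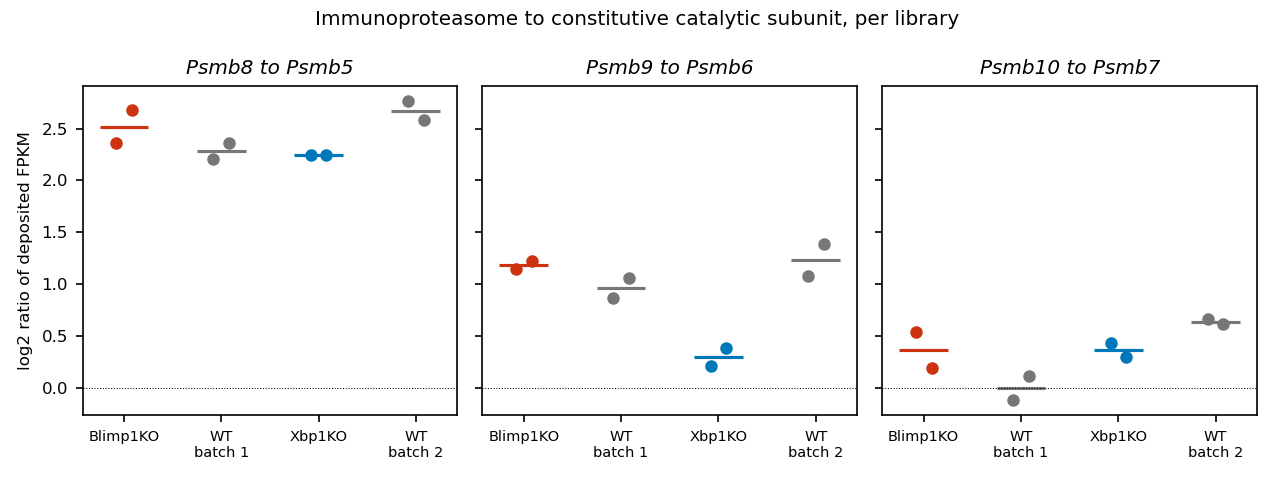
Log2 ratio of each immunoproteasome subunit to its constitutive partner in each library (points), from the deposited FPKM values, with the group mean as a bar and the dotted line at equal levels. Psmb9 to Psmb6 has a mean of 0.30 in Xbp1KO, against 1.23 in WT of batch 2.

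In Xbp1KO the highest estimates belonged to Psmd8, Psmc5 and Psma8, none of which passed. Psmd8, a cap subunit, had 98.1 and 82.9 CPM in Xbp1KO, against 57.4 and 50.9 CPM in WT of batch 2 (0.74 ± 0.22, adjusted p = 0.098). Psmc5, an ATPase that helps unfold substrates, had 47.0 and 37.0 CPM, against 26.9 and 23.6 CPM (0.73 ± 0.22, adjusted p = 0.094). The groups did not overlap for either. Psma8, which has few counts, was at 0.72 ± 0.88. Psme3, the subunit of the nuclear activator ring, was at 0.50 ± 0.15 (adjusted p = 0.093), and Psme1 and Psme2, which form the interferon-inducible ring, at 0.50 ± 0.24 and 0.41 ± 0.23. Psme4, a single-chain activator, was at -0.47 ± 0.21, with 89.6 and 81.3 CPM in Xbp1KO, against 125 and 112 CPM in WT of batch 2. The smallest p in the remaining classes belonged to Psma1 (0.26 ± 0.18), Psmb7, Psmd10 (0.13 ± 0.20) and Psma8. Psmc3ip, a recombination factor matched by its symbol alone, rose in Xbp1KO, with 5.99 and 6.13 CPM against 1.54 and 0.922 CPM in WT of batch 2 (2.29 ± 0.45, adjusted p = 0.0276). It did not pass when either library of any WT or Xbp1KO group was left out (adjusted p = 0.057 to 0.153).

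In Blimp1KO, 0 of 42 subunit genes passed edgeR's quasi-likelihood test, where 0.862% of all genes did (0.577% higher and 0.285% lower). At an unadjusted p below 0.05 there was 1 gene higher and 1 lower, where 13.9% of all genes passed in either direction, and DESeq2 also called 0. The median log2 fold change was 0.06, against -0.01 for all genes, with 24 estimates above and 18 below WT of batch 1. The groups did not overlap for 4 genes higher in Blimp1KO and 7 lower, where 20.9% and 22.1% of all genes did the same. Psme1 had the highest estimate, with 80.6 and 133 CPM in Blimp1KO, against 69.5 and 68.9 CPM in WT of batch 1 (0.63 ± 0.24, adjusted p = 0.314). Psme4 had the lowest, with 69.4 and 49.8 CPM in Blimp1KO, against 77.1 and 92.3 CPM in WT of batch 1 (-0.51 ± 0.21, adjusted p = 0.348). The immunoproteasome genes were at 0.14 ± 0.30 (Psmb8), 0.20 ± 0.27 (Psmb9) and 0.40 ± 0.30 (Psmb10), and their partners at -0.10 ± 0.28 (Psmb5), -0.02 ± 0.26 (Psmb6) and -0.07 ± 0.20 (Psmb7). The cap subunit Psmd3 was at -0.35 ± 0.16, the chaperone Psmd10 at 0.38 ± 0.20, Psma3 at 0.19 ± 0.18, Psmb1 at 0.23 ± 0.25 and Psmc4 at -0.14 ± 0.16. Psme2 and Psme3 were at 0.45 ± 0.23 and -0.04 ± 0.15.

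The difference between the knockout effects was tested directly. 0 of 42 subunit genes passed edgeR's quasi-likelihood test for the difference (Blimp1KO effect minus Xbp1KO effect), where 1.68% of all genes did (1.17% higher and 0.511% lower). At an unadjusted p below 0.05 there was 1 gene higher and 2 lower, where 15.9% of all genes passed in either direction. DESeq2 called 1, Psmb9. Psmb9 had the highest estimate, 1.15 ± 0.39 (adjusted p = 0.197), and Psmd8 the lowest, -0.65 ± 0.31 (adjusted p = 0.387).

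**Figure D4:**
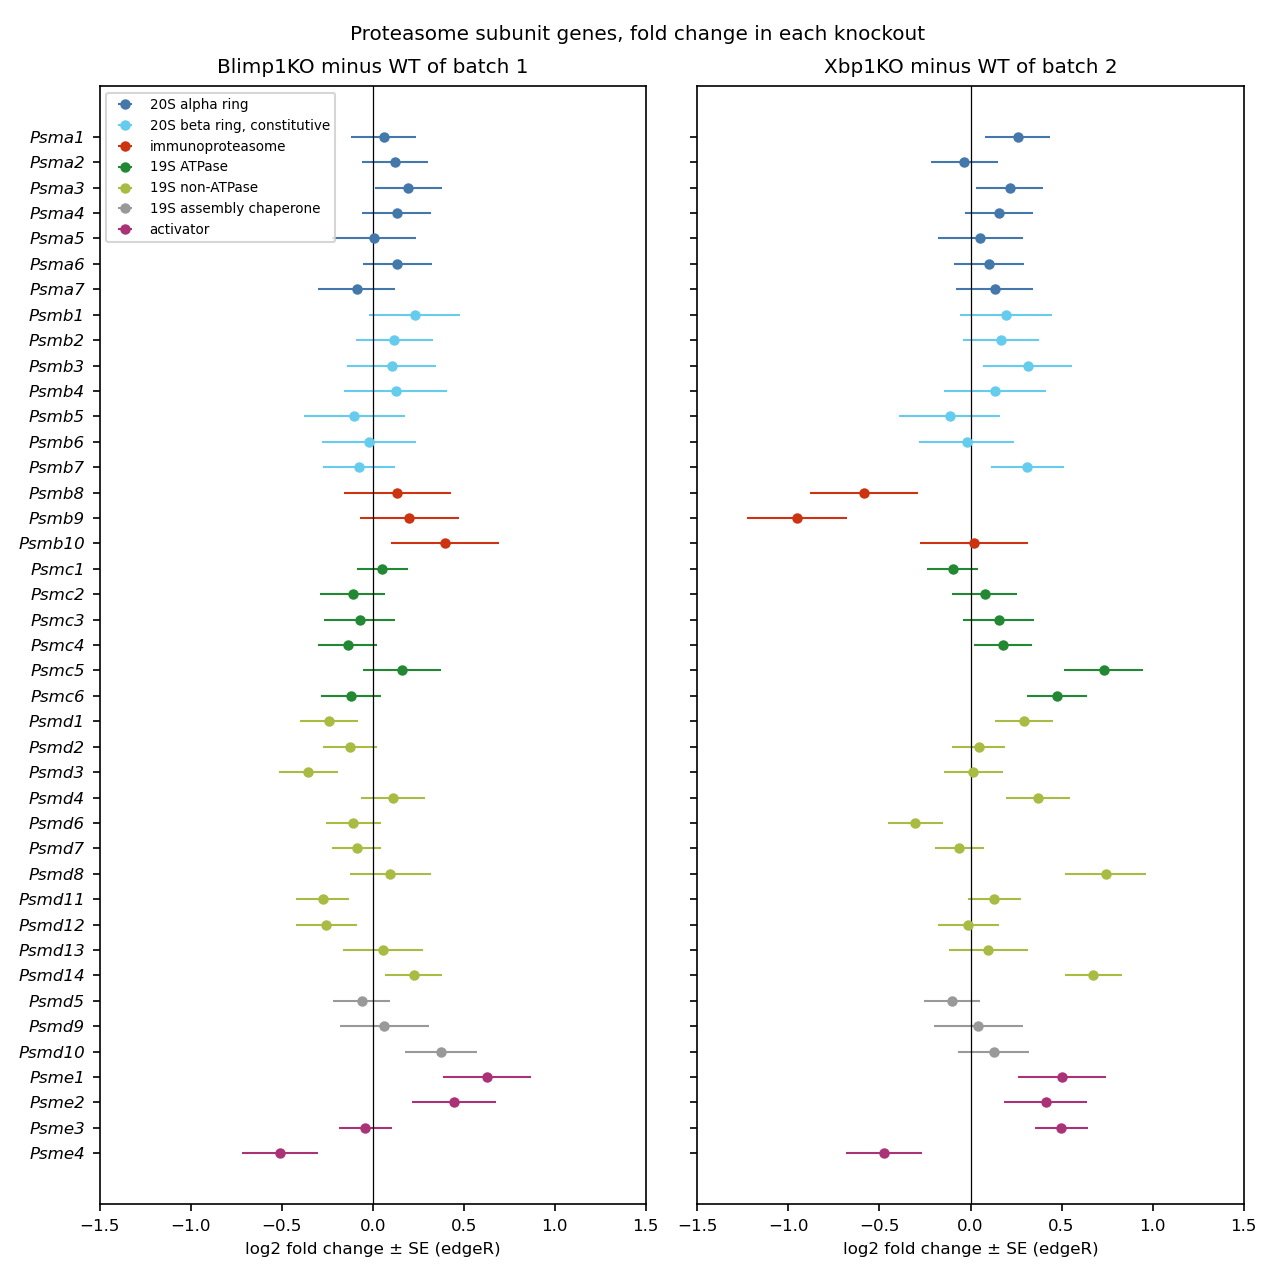
Log2 fold change ± SE of 41 subunit genes (all tested but Psma8) in Blimp1KO against WT of batch 1 (left) and Xbp1KO against WT of batch 2 (right), coloured by subunit class. In Xbp1KO, Psmb8 and Psmb9 lie at -0.59 and -0.95 while most others lie near or above 0.

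More subunit genes passed between the WT groups of the batches than between either knockout and its own WT. In WT of batch 2 against WT of batch 1, 4 of 42 subunit genes fell and none rose by edgeR's quasi-likelihood test, where 0.843% of all genes fell and 1.96% rose. At an unadjusted p below 0.05, 22 subunit genes were lower and 1 was higher, where 27.1% of all genes passed in either direction. Psma5, an alpha ring subunit, had 3.36 and 3.88 CPM in WT of batch 2, against 12.3 and 12.4 CPM in WT of batch 1 (-1.77 ± 0.24, adjusted p = 0.0193). Psmb7 was at -1.34 ± 0.20 (adjusted p = 0.0252), the alpha ring gene Psma2 at -1.10 ± 0.19 (0.0338) and the ATPase gene Psmc1 at -0.99 ± 0.14 (0.0222). With each of the WT libraries left out in turn, 0 subunit genes passed, and with either Xbp1KO library left out only Psma5 did. Without Blimp1KO replicate 1 or 2, more than 4 subunit genes passed, all lower, and no share over all genes is given for these fits. Of all 42, 35 estimates were below WT of batch 1, with a median of -0.43 against -0.02 for all genes, and the groups did not overlap for 32 genes lower and 6 higher (35.3% and 32.3% of all genes). Batch and whatever else differs between the sets cannot be told apart.

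Gene length moved with this difference and with that between the Blimp1KO libraries. Subunit genes were short, with a median length of 1365 bases against 2616 for all genes tested. In WT of batch 2 against WT of batch 1, all genes under 1000 bases had a median of -0.34 and those of at least 5000 bases 0.43, and the 11 subunit genes under 1000 bases had a median of -0.77. Between the Blimp1KO libraries, 40 of 42 subunit genes were higher in replicate 2 than in replicate 1, with a median of 0.47 on the log2 scale. The same measure over all genes was 0.34 under 1000 bases and -0.51 from 5000 bases up. Without Blimp1KO replicate 2 the median over the subunits was -0.19 and without replicate 1 it was 0.36, so the direction in Blimp1KO rests on which library is kept. With the length trend removed, which was chosen after the data were seen, 4 subunit genes passed in Xbp1KO: Psmb9 (-1.16 ± 0.16) and Psmd6 (-0.47) fell, and Psmd14 (0.54) and Psmd8 (0.60) rose. Over all genes, this fit also called more than the fit without this step, as counted in the last paragraph. In the same fit 0 passed in Blimp1KO and Psmb9 passed for the difference between the effects (1.27 ± 0.23, adjusted p = 0.032).

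**Figure D5:**
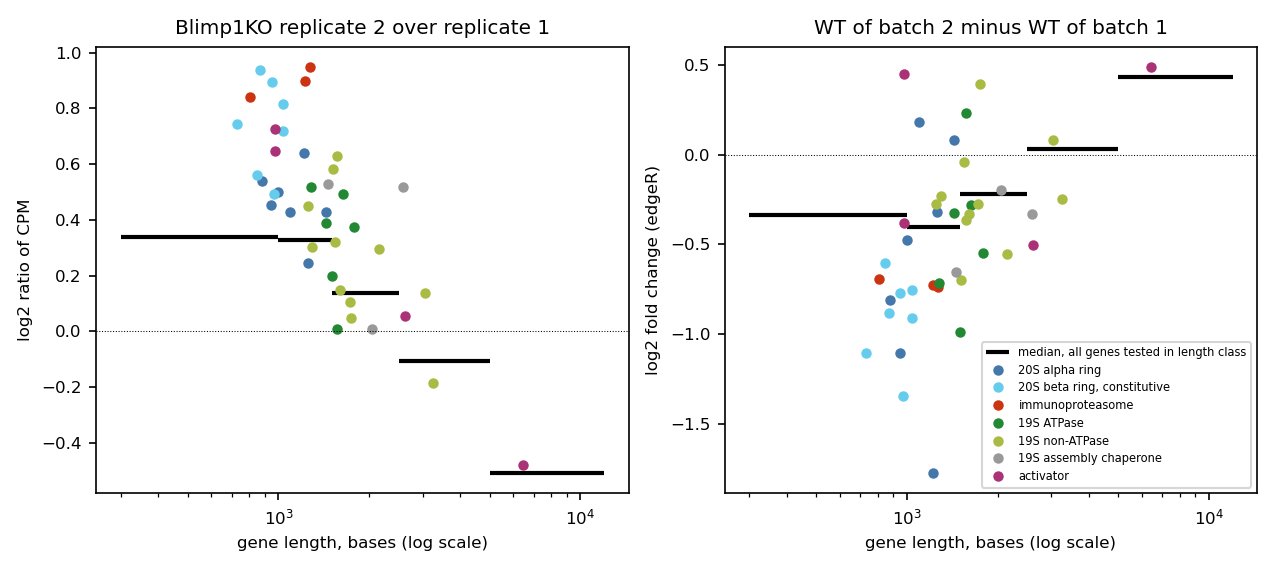
Log2 ratio of Blimp1KO replicate 2 over replicate 1 (left) and log2 fold change of WT of batch 2 minus WT of batch 1 (right) for 41 subunit genes against gene length (log scale), with bars at the median of all genes tested in each length class. Short subunit genes lie high on the left and low on the right, as do short genes in general.

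Genes around the proteasome were counted in 4 lists. In Blimp1KO, edgeR's quasi-likelihood test called 0 of 16 genes of assembly and regulation (assembly genes below) and 0 of 16 ubiquitin and shuttle genes. It also called 0 of 9 genes of class I peptide loading and 0 of 12 regulators of subunit genes, where 0.862% of all genes were called. At an unadjusted p below 0.05 these lists held 0, 3, 0 and 1 genes (13.9% of all genes), and DESeq2 called 1 gene of the ubiquitin list (Nploc4) and 0 in each of the other three. In Xbp1KO the assembly list held 0 calls, with the core chaperone gene Pomp at 0.61 ± 0.22 (adjusted p = 0.148) and Txnl1 at -0.40 ± 0.16. At an unadjusted p below 0.05 it held 1 gene higher and 1 lower (23.6% of all genes), DESeq2 called 0, and the median of the list was 0.10. Of the 16 ubiquitin and shuttle genes 2 fell and 0 rose, where 5.06% of all genes fell and 2.63% rose: Ubqln2, a shuttle that carries ubiquitinated proteins (-0.72 ± 0.13, adjusted p = 0.0228), and Nploc4, a cofactor of the p97 ATPase (-0.60 ± 0.14, adjusted p = 0.0468). The median of the list was -0.22, against 0.08 for all genes. Both calls were lost when either library of WT of batch 1, WT of batch 2 or Xbp1KO was left out (adjusted p = 0.065 to 0.240 over both genes).

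Of 9 genes of class I peptide loading, the step that uses the peptides of the proteasome, 2 fell and 2 rose in Xbp1KO, where 5.06% of all genes fell and 2.63% rose. The median of the list was -0.42, and each of these calls was lost in some fits without 1 library. Tapbp, which encodes tapasin, had 74.2 and 71.1 CPM in Xbp1KO, against 235 and 229 CPM in WT of batch 2, and fell by 1.68 ± 0.25 on the log2 scale (adjusted p = 0.0120). B2m, the light chain of class I molecules, fell by 1.32 ± 0.28 (adjusted p = 0.0380). The peptide-trimming gene Erap1 rose by 0.92 ± 0.18 (adjusted p = 0.0298) and the class I heavy chain gene H2-D1 by 1.11 ± 0.26 (adjusted p = 0.0483), while reads of H2-D1 may be shared with related class I genes. The transporter genes Tap1 and Tap2 were at -0.50 ± 0.20 (adjusted p = 0.194) and -0.42 ± 0.17 (0.184). Leaving out either library of WT of batch 2 or Xbp1KO ended all 4 of these calls, with Tapbp at adjusted p = 0.064 to 0.080 and the others at 0.066 to 0.234. For Erap1, H2-D1 and B2m either library of WT of batch 1 did so too, as did Blimp1KO replicate 1 for B2m (0.061). B2m was also at -0.99 (adjusted p = 0.223) with limma on log2 FPKM. In Blimp1KO the values were 0.44 ± 0.24 for Tapbp and 0.42 ± 0.26 for H2-D1. Of the 12 regulators 1 fell and 0 rose in Xbp1KO: Irf8, an interferon response factor that binds immune gene promoters, fell by 0.86 ± 0.20 (adjusted p = 0.0483), with 22.4 and 26.2 CPM against 46.2 and 41.8 CPM in WT of batch 2. Irf8 lost its call when either library of any WT or Xbp1KO group was left out (adjusted p = 0.069 to 0.214). In Blimp1KO the regulators Nfe2l2 and Ddi2 were at 0.55 ± 0.17 and -0.83 ± 0.38, and the shuttle genes Nploc4 and Rad23b at -0.50 ± 0.14 and -0.56 ± 0.18.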

How the data were processed

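RNA of 8 libraries was measured. The authors' deposited table gives raw counts per gene, made with Subread and featureCounts on GRCm38/mm10 per the submitters' processing notes. The strand setting and the treatment of multi-mapped reads are not given in the sources used here. A deposited file for each sample gives log2 FPKM values of 13945 genes, per the file headers, whose distributions are equal across files. In 4 of these 8 files the values follow the counts of the other replicate of the same group, which moves no group mean.

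Genes were filtered with filterByExpr (minimum count 10, 15073 genes left) in edgeR 4.0.16 (R 4.3.3), scaled by TMM and fitted with glmQLFit with 4 group means over all 8 libraries. Differences were tested with glmQLFTest and Benjamini-Hochberg adjustment over all genes tested, at 0.05. A group holds 2 libraries. Standard errors are the log2 fold change over the root of F. RPKM values use the gene lengths of the table. The fit was also run on simulated counts. These held no batch difference and no gene length trend, so they do not show how the fit handles either. Members and lists were chosen with earlier results of these data known. Named genes were the catalytic subunits and activators, called members, the smallest p of each class, the extremes, called list genes (or up to 2 as values) and Prdm1, Xbp1 and Sdc1. Promoter motifs and the genes printed outside this rule were chosen after values were seen. Alternatives were another normalization, no filter, no immunoglobulin genes, own batch alone, pooled WT, a replicate block, DESeq2 1.42.0, limma 3.58.1, each library left out and, chosen after the data were seen, removal of a gene length trend (lowess span 0.3).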

Additional observations from a re-analysis of the deposited data

Results flagged for a closer look

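Tapbp, the tapasin gene of class I peptide loading, had effects that differed between the knockouts by 2.12 ± 0.35 on the log2 scale (Blimp1KO effect minus Xbp1KO effect, edgeR's quasi-likelihood test, adjusted p = 0.0391). It had 311 and 494 CPM in Blimp1KO, against 302 and 291 CPM in WT of batch 1. For Xbp1KO it had 74.2 and 71.1 CPM, against 235 and 229 CPM in WT of batch 2. Over all genes, 1.68% passed for the difference. The call of Tapbp in Xbp1KO was lost when either library of WT of batch 2 or Xbp1KO was left out. Whether its difference holds in those fits is not given here.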

How the results depend on the processing

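Counts were low for Psmb11 (0 to 4 per library) and Psma8 (4 to 18), where depth gives little precision. No called gene changed sign, whereas some medians over subunit genes did, as given below. In Xbp1KO the count of subunit genes called was 5 with DESeq2 or in a fit of its own batch, 4 with the length trend removed, 3 without the low-count filter, 2 with limma on log2 FPKM, 0 with the other normalization (RLE) or without immunoglobulin genes, and 0 to 6 with a library left out (6 without Blimp1KO replicate 2). The difference of effects had 1 with DESeq2 or the length trend removed and 0 to 1 with a library left out, and Blimp1KO 0 to 1 (Psme1, without Blimp1KO replicate 1). For WT of batch 2 against batch 1 the count was 11 with DESeq2, 8 without the filter and 0 to 21 with a library left out. The cause was not tested. Over all genes, more passed as well in both knockouts with DESeq2 or the length trend removed, as counted at the end. For the other alternative fits no share over all genes is given. The same holds for the difference of effects and the WT groups in all alternative fits. Whether those counts exceed the share over all genes is thus not shown.

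With pooled WT, the Blimp1KO medians were 0.24 (all subunits), 0.45 (constitutive beta) and 0.10 (ATPase). In Xbp1KO they were -0.16 (all subunits), -0.15 (alpha), -0.34 (beta), 0.0074 (ATPase), -0.20 (chaperones), 0.26 (activators) and -0.996 (immunoproteasome). With the length trend removed, the Xbp1KO medians were -0.023, -0.074 and -0.039 (all, alpha, beta), 0.0072 (non-ATPase), 0.25 (activators) and -0.76 (immunoproteasome). The WT batch median was -0.41 with DESeq2 or RLE, -0.40 with limma, -0.26 with the length trend removed, -0.38 without the filter and -0.39 without immunoglobulin genes.

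With a library left out, the Blimp1KO medians ranged from -0.19 to 0.36 (all), -0.12 to 0.38 (alpha), -0.34 to 0.42 (beta), -0.28 to 0.61 (immunoproteasome), -0.21 to 0.16 (ATPase), -0.060 to 0.35 (chaperones) and 0.013 to 0.41 (activators). Its summed log2 ratios ranged from -0.24 to 0.29 (all), -0.27 to 0.36 (20S), -0.23 to 0.075 (19S), -0.46 to 0.26 (Psmb5, Psmb6 and Psmb7) and -0.31 to 0.58 (immunoproteasome). In Xbp1KO the ranges were -0.013 to 0.21 (all), -0.094 to 0.23 (non-ATPase), -0.20 to 0.21 (chaperones), 0.34 to 0.49 (activators), -0.74 to -0.49 (immunoproteasome) and 0.13 to 0.31 (summed 19S). The median of the difference of effects ranged from -0.37 to 0.17 and that of the WT batches from -0.45 to -0.39.

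Among related genes in Xbp1KO, class I loading had 2 calls without the filter and 0 to 4 with a library left out, regulators 3 with DESeq2, own batch alone or the length trend removed and 0 to 2, ubiquitin and shuttle genes 1 without the filter and 0 to 4, and assembly genes 0 to 1. In Blimp1KO, ubiquitin and shuttle genes had 1 with DESeq2 and 0 to 2, and regulators 0 to 1. The replicate block within batch 1 left class I loading with 2 calls, ubiquitin and shuttle genes with 1 and regulators with 0, and the count of subunit genes called at 0 in Blimp1KO, 1 in Xbp1KO and 4 between the WT groups. In batch 1, deviations of same-numbered libraries from their group means had a correlation of 0.218 over the 15073 genes tested. With 2 libraries per group, the deviations of the other library mirror these, so the value cannot decide whether the numbers pair libraries. No pairing was assumed outside the replicate block. Over all genes, the count called was 862 in Blimp1KO and 2220 in Xbp1KO with DESeq2, and 421 and 1885 with the length trend removed, against 130 and 1160. The list counts of the other alternative fits have no such count beside them.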
